A study of Mus musculus with 8 samples.

Results

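The genes for 10 growth factors and cytokines that thymic stroma and other thymus cells make were described in whole thymus of mice flown on the space shuttle and of mice kept on the ground. They are Il7, Kitl, Il15, Tslp, Fgf7, Fgf10, Fgf21, Bmp4, Igf1 and Tgfb1, listed by name, though with earlier results of these data known. They are 10 of 19938 genes measured. Each had exactly 1 probe set assigned to it alone on the array, so no choice among probe sets was needed. Both groups were C57BL/6NTac mice, 8 weeks old, 4 in each. The spaceflight mice spent 13 days aboard the shuttle, and the ground-control mice, matched for age and sex, lived in enclosure modules of the same kind. The labels name no transgene and no drug in either group. RNA of whole lobes was measured on 1 array per mouse, so every value is a mixture of thymocytes, epithelium, fibroblasts, vessels, blood cells and any tissue attached to the lobes.

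T cell precursors enter the thymus from blood and depend on signals from its non-lymphoid cells. Thymic epithelium makes interleukin-7, which acts through a receptor of Il7r and the common gamma chain and keeps early thymocytes alive through Jak1, Jak3 and Stat5. Epithelium and endothelium make stem cell factor, the product of Kitl, which acts on the Kit receptor of the earliest precursors. In the other direction, mesenchyme makes Fgf7 and Fgf10, ligands of the epithelial form of Fgfr2, and mesenchyme and endothelium make Bmp4, and these sustain the epithelium itself.

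The transcription start regions of Kitl and Fgf21 are shown because these are the genes with the smallest limma p among the 10 whose regions were in the RefSeq promoter table of GRCm38.p6, which held 7 of the 10. Il7, Il15 and Tslp had no entry. Each line gives the 250 bases before the transcript start that the table uses, on the strand of the gene, with matches to 4 motifs in capitals. The motifs, searched on both strands, were the heat shock element GAANNTTC, the glucocorticoid receptor partial site AGAACA, the E-box CACGTG and the TATA box TATAAA, and no matches overlapped.
Kitl, chr10:100015571-100015820, + strand: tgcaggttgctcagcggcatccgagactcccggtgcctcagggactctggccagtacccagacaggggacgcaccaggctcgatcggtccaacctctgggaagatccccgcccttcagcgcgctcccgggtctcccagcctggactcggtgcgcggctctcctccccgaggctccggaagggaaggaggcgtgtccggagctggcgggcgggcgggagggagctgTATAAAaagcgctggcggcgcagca
Fgf21, chr7:45615491-45615740, - strand: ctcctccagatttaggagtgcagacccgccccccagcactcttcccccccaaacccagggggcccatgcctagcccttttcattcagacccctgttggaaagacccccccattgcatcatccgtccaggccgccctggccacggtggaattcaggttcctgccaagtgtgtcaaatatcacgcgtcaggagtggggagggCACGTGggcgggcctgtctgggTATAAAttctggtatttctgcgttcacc

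The capitals in the Kitl line are a TATA box that begins 25 bases before the start. The Kitl region overlaps the annotated extent of the gene, which begins further upstream. The Igf1 region, searched but not shown, lies wholly inside the annotated extent of Igf1. The capitals in the Fgf21 line are an E-box at 50 bases and a TATA box at 28 bases before the start. Of 32851 such regions of all genes, 12.4% held TATAAA and 6.02% held CACGTG. The heat shock element (6.69% of all regions) and AGAACA (16.1%) were found in none of the 7 regions, and the Bmp4 region held a CACGTG at 188 bases before the start. The regions of Fgf7, Fgf10, Igf1 and Tgfb1 held none of the 4. These matches describe letters in the windows. Nothing in the arrays measured binding there.

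Values are log2 expression values, so a difference of 1 is a 2-fold change. They are compared only within a gene, since probe sets differ in brightness. The 8 thymocyte markers Cd3e, Cd4, Cd8a, Cd8b1, Rag1, Rag2, Ptcra and Dntt had a list mean of 10.12 to 10.40 in spaceflight and 10.38 to 10.45 in ground control. All 8 had a lower spaceflight mean, with a median difference of -0.15. The table marks no background level, so whether a cell type was present or absent was not tested. Spaceflight replicates 1 and 3 stood apart. Both had an interquartile range of 2.22 over genes, where the other 6 arrays had 2.55 to 2.84. Their correlation with those 6 over genes was 0.956 to 0.986, where the 6 correlated with each other at 0.984 to 0.993. When genes were cut into 10 equal groups by brightness, the median spaceflight minus ground-control difference was as high as 0.11 in a dim group and as low as -0.14 in a bright one. Each of the 10 genes is therefore set beside the median of its own brightness group (genes of like brightness) and given without these 2 arrays. All brightness-group medians given here are over all 8 arrays.

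After the flight, 9 of the 10 genes had a lower mean (8 with each array centred on its 75th percentile), where 53.5% of all genes did, but none passed the test. With limma and Benjamini-Hochberg adjustment over 19938 genes, 0 of 10 were at an adjusted p under 0.05, where 0.0802% of all genes passed (16 genes, 3 higher and 13 lower, and 6 to 15 genes when a single array was left out). At an unadjusted p under 0.05, 4 of 10 were lower (Kitl, Fgf21, Igf1 and Il7) and 0 higher, where 7.38% of all genes were lower and 3.43% higher. The median difference over the 10 was -0.24, against -0.02 over all genes. Without spaceflight replicates 1 and 3 the median over the 10 was -0.12, 8 of 10 had a lower mean (53.4% of all genes), and 2 of 10, Kitl and Fgf21, were lower at an unadjusted p under 0.05 (3.97% of all genes). Leaving out replicate 1 or replicate 3 alone also left these 2. Centring each array on its 75th percentile left 1 of 10, Kitl. Repeated quantile normalization gave 5 of 10, with Fgf10 added to the 4.

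**Figure D1:**
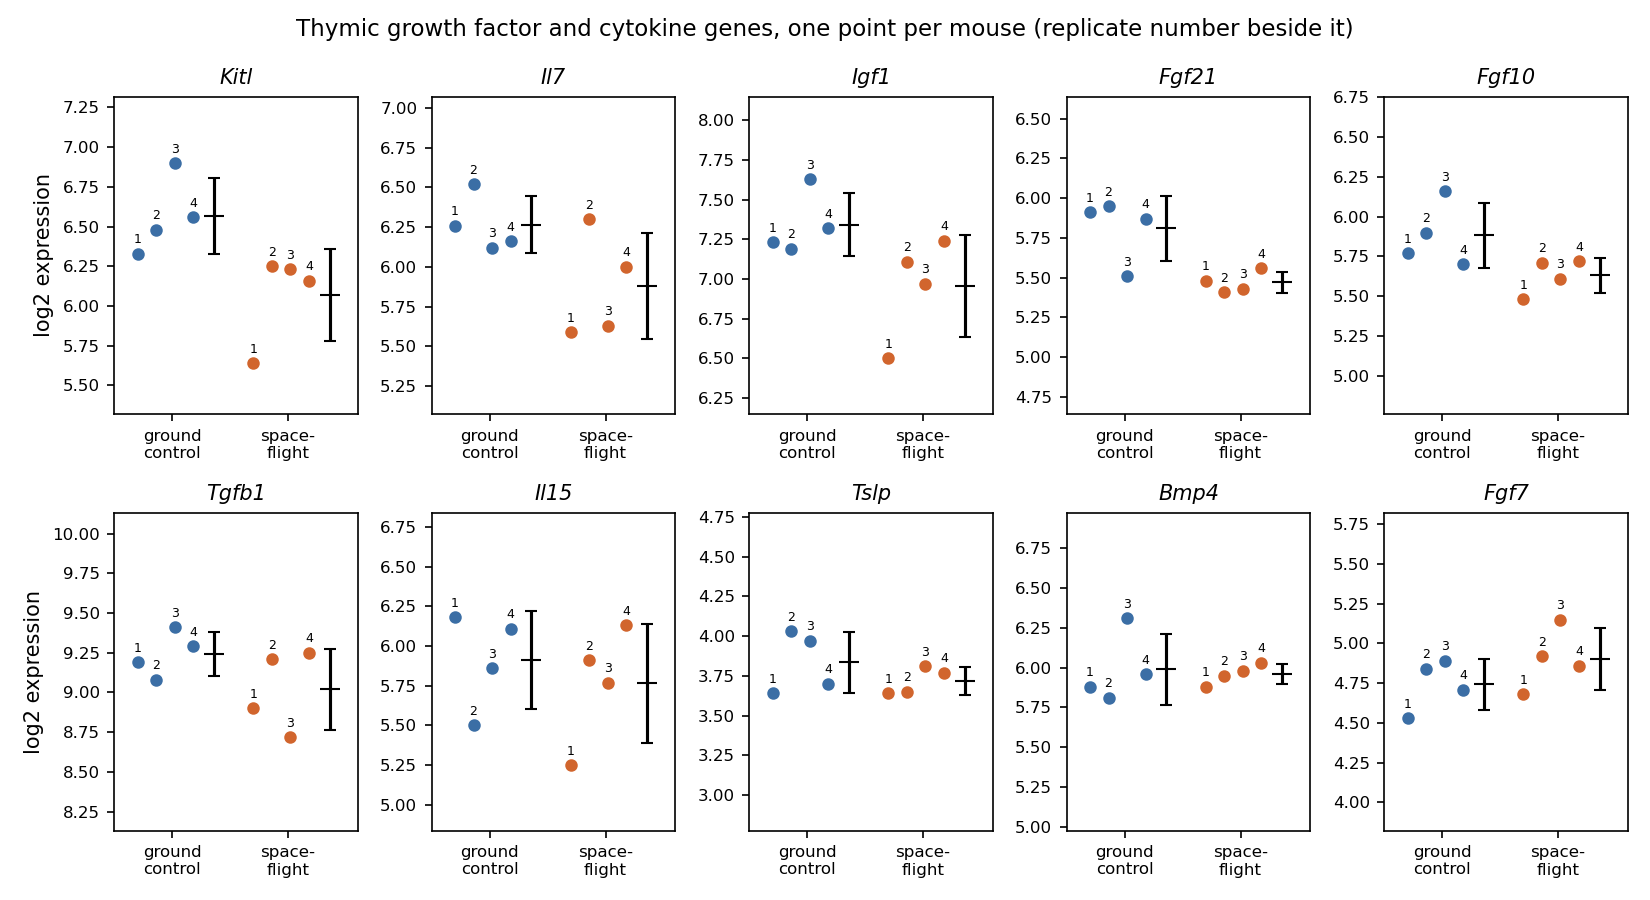
Log2 expression of each gene (vertical axes, each spanning 2 log2 units) in ground control (blue) and spaceflight (orange), 1 point per mouse with its replicate number, and black bars for mean ± SD (n = 4). Only for Kitl do the groups not overlap, with spaceflight at most 6.25 and ground control at least 6.33, and spaceflight replicate 1 is the lowest array for Kitl, Il7, Igf1, Fgf10 and Il15.

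Kitl showed the largest difference of the 10. Spaceflight mice had values of 5.64, 6.25, 6.23 and 6.16 (replicates 1 to 4), and ground-control mice had 6.33, 6.48, 6.90 and 6.56. All 4 spaceflight mice lay below all 4 ground-control mice, which held for 1 of the 10 genes and for 4.28% of all genes. The opposite order held for 0 of the 10 and for 1.73% of all genes. The means were 6.07 ± 0.29 and 6.57 ± 0.24 (SD, n = 4 each), a difference of -0.50 ± 0.16 (SE), or 1.41-fold lower with a 95% interval of 1.11 to 1.81. Its limma adjusted p was 0.345, and the median of genes of like brightness was -0.07. Without spaceflight replicates 1 and 3 the difference was -0.37 ± 0.15 (adjusted p = 0.648).

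Il7 was low in only part of the spaceflight group. Its spaceflight values were 5.59, 6.30, 5.63 and 6.00, against 6.26, 6.52, 6.12 and 6.16 in ground control. Replicates 1 and 3 were the low arrays, while spaceflight replicate 2 was above 3 of the 4 ground-control mice. The means were 5.88 ± 0.33 and 6.26 ± 0.18, a difference of -0.38 ± 0.16 with a 95% interval of -0.74 to -0.02 (limma adjusted p = 0.445). Without replicates 1 and 3 it was -0.11 ± 0.14 (adjusted p = 0.936), and genes of like brightness had a median of 0.00 with all arrays.

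Il15, the cytokine that natural killer cells and memory-type T cells depend on, varied as much within groups as between them. Spaceflight mice had 5.25, 5.91, 5.77 and 6.13, and ground-control mice had 6.18, 5.50, 5.86 and 6.11. Spaceflight replicate 1 and ground-control replicate 2 were the low arrays, and the groups overlapped. The difference was -0.15 ± 0.20 (95% interval -0.57 to 0.28, adjusted p = 0.761), and it was 0.10 ± 0.18 without spaceflight replicates 1 and 3. Genes of like brightness had a median of 0.00. The 4 natural killer cell markers Ncr1, Klrb1c, Prf1 and Gzma had a list mean of 5.79 to 6.02 in spaceflight and 5.81 to 5.95 in ground control. In that order the 4 differed by 0.09, -0.02, -0.18 and 0.31 (0 passed). Without spaceflight replicates 1 and 3 they differed by -0.02, 0.13, -0.10 and 0.60. Tslp, an epithelial cytokine that acts through Crlf2 and Il7r, was in the dimmest of the 10 brightness groups and ran from 3.64 to 3.81 in spaceflight and from 3.64 to 4.03 in ground control. Its difference was -0.12 ± 0.12 (95% interval -0.38 to 0.14, limma adjusted p = 0.689), and -0.13 ± 0.14 without those arrays. With all arrays, genes of like brightness had a median of 0.09.

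The 3 fibroblast growth factors differed from each other in pattern. Fgf21, an endocrine factor known from liver and fat that thymic epithelium can also make, had spaceflight values of 5.48, 5.41, 5.43 and 5.56, against 5.91, 5.95, 5.51 and 5.87. The spaceflight mice lay within a narrow band, and ground-control replicate 3 was the single control inside it. The means were 5.47 ± 0.07 and 5.81 ± 0.20, a difference of -0.34 ± 0.12, or 1.27-fold lower with a 95% interval of 1.06 to 1.52 (limma adjusted p = 0.376). Genes of like brightness had a median of 0.07. The difference was about as large without spaceflight replicates 1 and 3 (-0.33 ± 0.14, adjusted p = 0.656) and was -0.44 without ground-control replicate 3.

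Fgf10 had spaceflight values of 5.48, 5.71, 5.61 and 5.72 and ground-control values of 5.77, 5.90, 6.16 and 5.70. Ground-control replicate 3 was the highest array and spaceflight replicate 1 the lowest, and ground-control replicate 4 lay inside the spaceflight range. The difference was -0.25 ± 0.12 (95% interval -0.52 to 0.02, limma adjusted p = 0.473) and -0.17 ± 0.14 without spaceflight replicates 1 and 3. With all arrays, genes of like brightness had a median of 0.00. Fgf7, the other ligand of epithelial Fgfr2, was the only one of the 10 with a higher spaceflight mean. It ran from 4.68 to 5.15 in spaceflight and from 4.53 to 4.89 in ground control, and the groups overlapped. Its difference was 0.16 ± 0.13 (95% interval -0.12 to 0.44, limma adjusted p = 0.612), and 0.15 ± 0.13 without spaceflight replicates 1 and 3. With all arrays, genes of like brightness had a median of 0.10.

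Igf1, insulin-like growth factor 1, had spaceflight values of 6.50, 7.11, 6.97 and 7.24 and ground-control values of 7.23, 7.19, 7.63 and 7.32. Spaceflight replicate 1 was far below the rest and ground-control replicate 3 above them, while the remaining 6 arrays lay between 6.97 and 7.32. The means were 6.96 ± 0.32 and 7.34 ± 0.20, a difference of -0.38 ± 0.16 with a 95% interval of -0.74 to -0.03 (limma adjusted p = 0.445). Genes of like brightness had a median of -0.12, and without spaceflight replicates 1 and 3 the difference was -0.16 ± 0.14 (adjusted p = 0.877).

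Tgfb1, a growth inhibitor of epithelium and lymphocytes that cells secrete in latent form, had spaceflight values of 8.90, 9.21, 8.72 and 9.25 and ground-control values of 9.19, 9.08, 9.41 and 9.29. Replicates 1 and 3 were again the low arrays, and replicates 2 and 4 lay within the ground-control range. The difference was -0.22 ± 0.14 (95% interval -0.52 to 0.08, limma adjusted p = 0.539) and -0.01 ± 0.12 without those 2 arrays. With all arrays, genes of like brightness had a median of -0.12. Bmp4 had the smallest difference of the 10. It ran from 5.88 to 6.03 in spaceflight and from 5.81 to 6.31 in ground control, with a difference of -0.03 ± 0.12 and a 95% interval of -0.31 to 0.24 (adjusted p = 0.922). It was -0.003 ± 0.15 without those arrays, and genes of like brightness had a median of 0.00. The interval for Bmp4 leaves out a fall of more than 1.24-fold under this model.

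**Figure D2:**
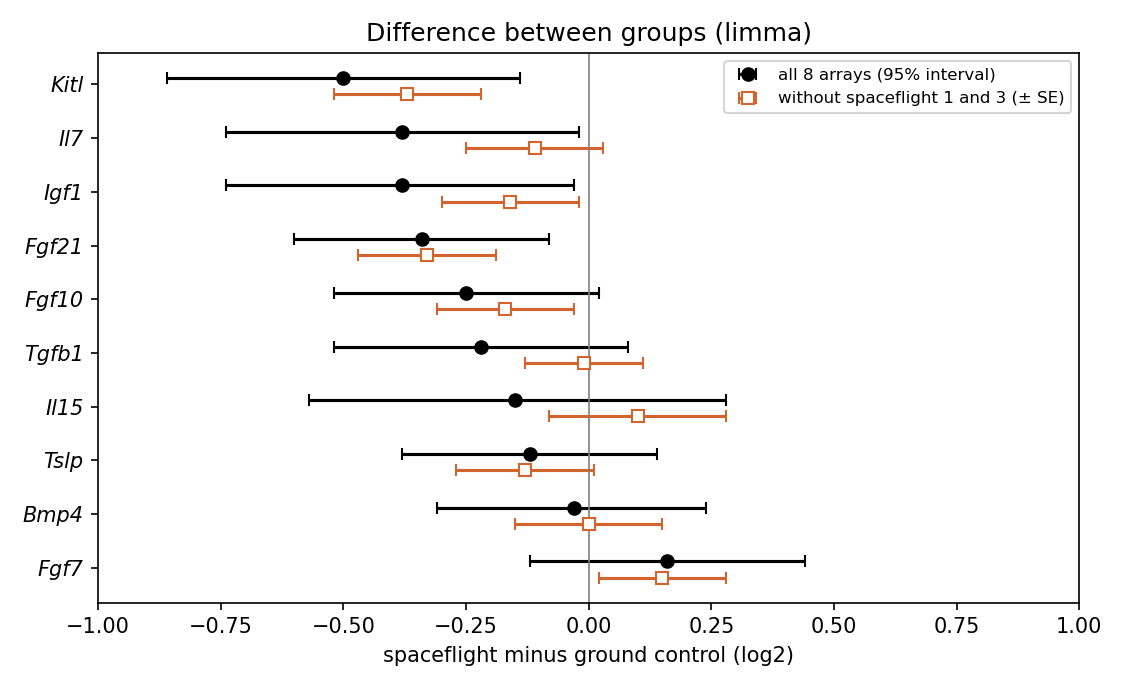
Difference between groups in log2 units (horizontal axis) for each gene, as black points with 95% intervals for all 8 arrays and as open orange squares with ± SE without spaceflight replicates 1 and 3. Kitl and Fgf21 keep most of their difference without these arrays (-0.37 and -0.33), while Il7, Igf1 and Tgfb1 move to -0.11, -0.16 and -0.01.

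Markers of the cells that can make these factors were also uneven between mice. Cortical epithelium markers (Foxn1, Psmb11, Prss16, Ly75, Ctsl, Tbata, Dll4 and Ccl25) had list means of 8.45 to 8.80 in spaceflight and 8.97 to 9.09 in ground control, with no overlap. Of these 8 markers 7 had a lower mean and 0 passed. They were uneven, at -0.79 for Psmb11, -0.72 for Tbata, -0.63 for Foxn1 and -0.47 for Dll4. Ccl25, Prss16, Ctsl and Ly75 differed by -0.20, -0.14, -0.06 and 0.02. Medullary epithelium markers lay at 6.67 to 7.16 in spaceflight and 7.12 to 7.33 in ground control (8 of 8 lower, 0 passed). Fibroblast markers overlapped between groups, at 7.13 to 8.27 and 7.71 to 8.47, with spaceflight replicate 1 the lowest array and ground-control replicate 3 the highest (7 of 8 lower, 0 passed). Endothelium markers showed the same extremes, 6.58 in spaceflight replicate 1 and 7.87 in ground-control replicate 3, with the other 6 arrays between 6.89 and 7.19 (5 of 6 lower, 0 passed). Fat markers, which can mark tissue attached to the lobes, lay at 7.35 in spaceflight replicate 1, 8.24 to 8.31 in the other spaceflight mice and 8.37 to 8.88 in ground control (7 of 7 lower, 0 passed). Macrophage and dendritic cell markers lay at 6.74 to 7.43 in spaceflight and 7.22 to 7.44 in ground control, with spaceflight replicates 1 and 3 the lowest (7 of 8 lower, 0 passed). Airway markers were at 5.21 in spaceflight replicate 1 and at 8.79 to 10.39 in the other 7 arrays, and muscle markers at 6.14 against 7.46 to 8.43 (4 of 4 and 5 of 5 lower, 0 passed). Median differences without spaceflight replicates 1 and 3 were -0.18 for cortical (-0.33 with all arrays) and -0.13 for medullary epithelium (-0.25). The cortical markers moved unevenly. Without those arrays Psmb11 was at -0.89, Tbata at -0.61, Foxn1 at -0.64 and Dll4 at -0.33. Ccl25, Prss16, Ctsl and Ly75 were then at -0.03, 0.17, 0.12 and 0.15. Fibroblast, endothelium, and macrophage and dendritic lists moved to 0.15, 0.00 and 0.06 (from -0.06, -0.25 and -0.22). Fat, muscle and airway lists moved to -0.42, -0.33 and -0.20 (from -0.62, -0.42 and -1.13). The thymocyte list, with 8 of 8 lower and 0 passed, moved to -0.05 (from -0.15). The array that was highest for Kitl, Igf1, Fgf10, Tgfb1 and Bmp4, ground-control replicate 3, was also the highest for the medullary epithelium, fibroblast, endothelium, fat, macrophage and dendritic cell, muscle and airway lists. The part of these cells in the differences was not tested, and fewer cells of a type and less RNA per cell cannot be told apart in whole lobes.

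**Figure D3:**
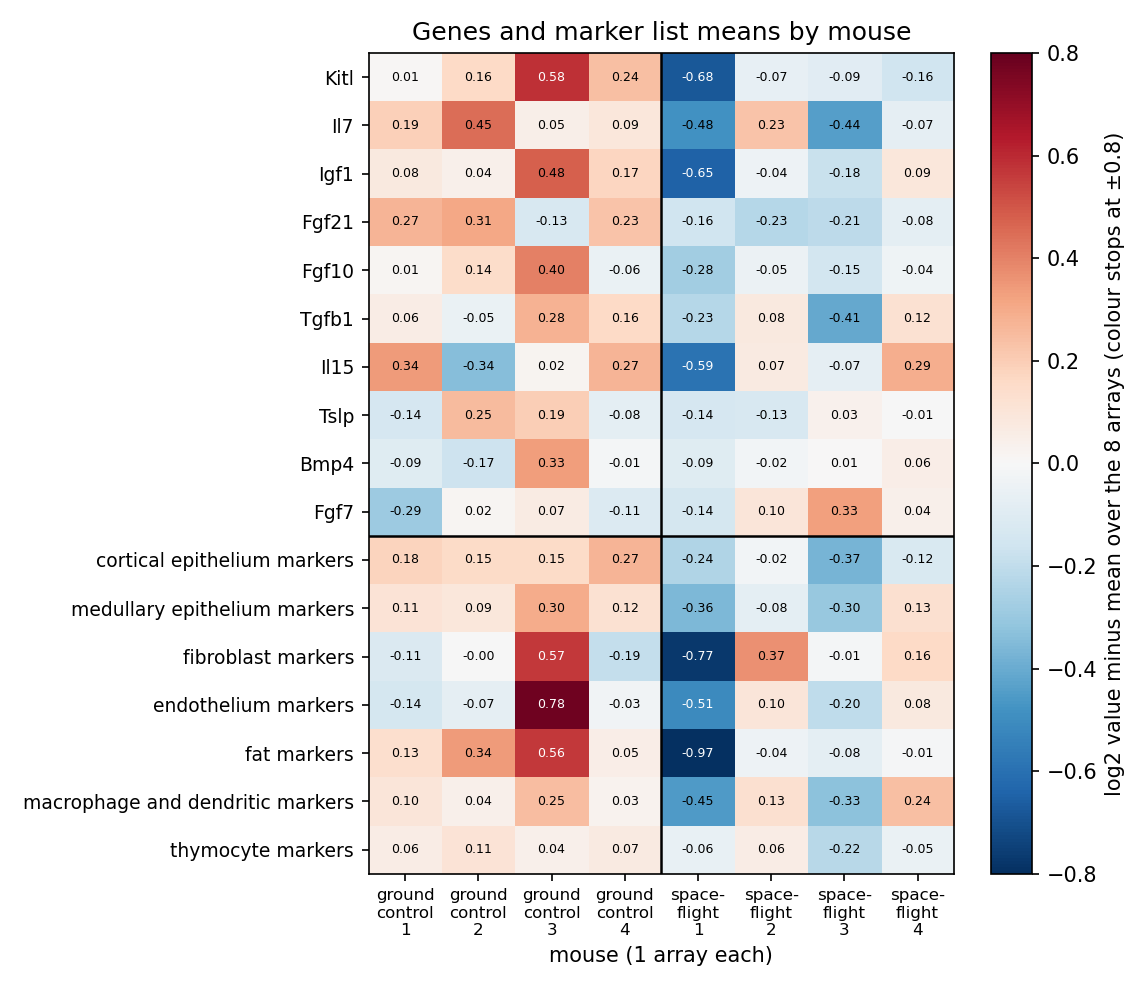
Log2 value minus the mean over the 8 arrays for each gene (upper rows) and for the mean of each marker list (lower rows), by mouse, with blue for low and red for high. Spaceflight replicate 1 is blue for most genes and every marker list shown, and ground-control replicate 3 is red for Kitl, Igf1, Fgf10 and Bmp4 and for the medullary epithelium, fibroblast, endothelium, fat, and macrophage and dendritic cell lists.

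Among the receptors of these factors, 0 of 16 measured genes passed and 0 were at an unadjusted p under 0.05. Il7r, the receptor chain that interleukin-7 and Tslp share, had the largest positive difference. Its spaceflight values were 9.29, 9.17, 9.02 and 9.41, against 9.11, 9.08, 8.94 and 8.75 in ground control. The groups overlapped, with a difference of 0.26 ± 0.13 (limma adjusted p = 0.471), and 0.32 ± 0.14 without spaceflight replicates 1 and 3. With all arrays, genes of like brightness had a median of -0.12. Klb, the co-receptor that Fgf21 needs, differed by -0.37 ± 0.19 (-0.30 ± 0.19 without those arrays), and Bmpr1a, a type I BMP receptor, by -0.34 ± 0.23 with spaceflight replicate 1 at 6.79 and all other arrays at or above 7.69. Tgfbr3, a co-receptor of TGF-beta, differed by 0.25 ± 0.15, and by 0.12 ± 0.13 without spaceflight replicate 2, its highest array at 8.44. Without spaceflight replicates 1 and 3 the Tgfbr3 difference was 0.44 ± 0.16. Without those arrays 3 of 16 receptors were higher at an unadjusted p under 0.05, where 3.49% of all genes were, and 0 were lower. They were Il7r, Tgfbr3 and Fgfr2, the last of which is outside the rule for naming genes and was named after its values were seen, and none passed (limma adjusted p from 0.436 for Fgfr2 to 0.65 for Il7r). The median over receptors was -0.11 with all arrays and 0.02 without spaceflight replicates 1 and 3. For Klb the brightness-group median was -0.07, and for Bmpr1a and Tgfbr3 -0.14. Il2rg was not among the genes measured by a probe set of its own.

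Genes downstream of the common gamma chain receptors showed small differences. Of 10 measured, 0 passed, 9 had a lower mean and the median was -0.14 (-0.01 without spaceflight replicates 1 and 3). Cish, an inhibitor that Stat5 induces, differed by -0.20 ± 0.12, Socs2 by -0.23 ± 0.16, Socs3 by -0.16 ± 0.12 and Stat5a by -0.14 ± 0.11. Without those arrays the 4 differences were -0.14, -0.07, -0.04 and -0.04. Socs2 and Socs3 each had 2 probe sets. With the mean of these in place of the brighter one they differed by -0.098 and -0.074 (all arrays). The brightness-group medians, with all arrays, were -0.07 for Cish, -0.12 for Socs2 and Socs3 and -0.14 for Stat5a. Of 12 FGF ligands and feedback genes 0 passed, with a median of -0.09. Spred1, an inhibitor of Ras signalling, ran from 7.00 to 7.47 in spaceflight and from 7.61 to 7.74 in ground control, with no overlap. Its difference was -0.39 ± 0.13 (limma adjusted p = 0.347) and -0.19 ± 0.10 without spaceflight replicates 1 and 3. Spry2, a feedback inhibitor of FGF signalling, also had no overlap, with a difference of -0.21 ± 0.11, and -0.09 ± 0.11 without those arrays. These are 2 of 12 genes without overlap, where 4.28% of all genes were lower in that way. Dusp6, a phosphatase that shuts off ERK, differed by -0.36 ± 0.18 and by -0.01 ± 0.12 without those arrays. Fgf1 differed by -0.23 ± 0.15, and by -0.16 ± 0.18 without them, with ground-control replicate 3 at 7.57 above all others. For Spred1 and Dusp6 the brightness-group median was -0.14, and for Spry2 and Fgf1 -0.12.

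Of 16 measured genes of the BMP pathway 0 passed, and the median was -0.12. At an unadjusted p under 0.05, 3 of 16 were lower (7.38% of all genes), and 1 of 16, Bmp7, was lower without overlap (4.28% of all genes). Bmp7, a further ligand of BMP receptors, had spaceflight values of 5.95, 5.95, 5.97 and 5.99, against 6.34, 6.36, 6.39 and 6.53. Every spaceflight mouse lay below every ground-control mouse, with almost no spread in the former. Bmp7 was dimmer than the median gene. The difference was -0.44 ± 0.10 (limma adjusted p = 0.161), it was -0.44 ± 0.11 without spaceflight replicates 1 and 3, and genes of like brightness had a median of 0.00. Bmp2 differed by -0.32 ± 0.13, the secreted BMP modulator Twsg1 by -0.36 ± 0.16 and the target gene Id2 by -0.33 ± 0.17 (adjusted p from 0.434 to 0.490). Without spaceflight replicates 1 and 3 these were -0.17, -0.10 and -0.03. Their brightness-group medians, with all arrays, were 0.10 for Bmp2, -0.12 for Twsg1 and -0.14 for Id2. Whether Bmp7 and Bmp4 differed from each other was not tested.

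In the IGF system 0 of 16 genes passed. Ghr, the growth hormone receptor upstream of Igf1 production, had spaceflight values of 6.83, 8.16, 8.05 and 8.04, against 8.50, 8.66, 9.12 and 8.51. The groups did not overlap, which held for 1 of 16 genes of this list and for 4.28% of all genes. Spaceflight replicate 1 was far below the other arrays. The difference was -0.93 ± 0.26 (limma adjusted p = 0.283), the largest among the 111 pathway genes measured, and -0.60 ± 0.17 without spaceflight replicates 1 and 3. Igfbp6, a binding protein, differed by -0.66 ± 0.28 and ran from 7.05 in spaceflight replicate 1 to 9.27 in ground-control replicate 3. Irs1, an adaptor of insulin and IGF receptors, differed by -0.29 ± 0.14. Without spaceflight replicates 1 and 3, Igfbp6 differed by -0.38 ± 0.29 and Irs1 by -0.23 ± 0.14. Irs1 had 2 probe sets, and with their mean in place of the brighter one its difference was -0.09 ± 0.11 (all arrays). Igfbp1, a binding protein best known from liver, was the only pathway gene higher at an unadjusted p under 0.05 (0.43 ± 0.17, limma adjusted p = 0.421). Its high arrays were spaceflight replicates 1 and 3, at 5.88 and 5.96, and without them the difference was 0.10 ± 0.13. Brightness-group medians, with all arrays, were -0.14 for Ghr and Igfbp6, 0.00 for Irs1 and 0.07 for Igfbp1.

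Of 20 measured genes of the TGF-beta system, 19 had a lower mean and 0 passed. Itgav, the integrin chain of the complexes that release active TGF-beta, differed by -0.34 ± 0.13, Tgfb3 by -0.42 ± 0.19, and Skil and Ski, repressors of Smad signalling, by -0.30 ± 0.14 and -0.31 ± 0.15 (adjusted p from 0.412 to 0.464). They were -0.17 for Itgav, -0.14 for Tgfb3, -0.09 for Skil and -0.24 for Ski without spaceflight replicates 1 and 3. For Itgav, Skil and Ski the brightness-group median, with all arrays, was -0.14, and for Tgfb3 0.00. The median of the list was -0.17, and -0.08 without spaceflight replicates 1 and 3. Among 21 other thymic ligands 0 passed and the median was -0.11. Il1b, the inflammatory cytokine interleukin-1 beta, had spaceflight values of 5.13, 4.84, 4.86 and 4.84, against 5.45, 5.47, 5.37 and 5.51 in ground control. The groups did not overlap and both had little spread. Of these 21 ligands 2 were lower without overlap, as were 4.28% of all genes. The difference was -0.53 ± 0.11, or 1.45-fold lower (limma adjusted p = 0.114). It was -0.61 ± 0.10 without spaceflight replicates 1 and 3 (limma adjusted p = 0.0871). With all arrays, genes of like brightness had a median of 0.10. Vegfa, the vascular growth factor, differed by -0.39 ± 0.19, Tnf by -0.19 ± 0.11 and Lif, a cytokine of the interleukin-6 family known from stress involution of the thymus, by 0.30 ± 0.17 (adjusted p from 0.469 to 0.511). Without spaceflight replicates 1 and 3 they were -0.23 for Vegfa, -0.17 for Tnf and 0.06 for Lif. Their brightness-group medians, with all arrays, were -0.12, -0.07 and 0.10. Across the 111 pathway genes measured, 0 passed. At an unadjusted p under 0.05, 10 of 111 were lower and 1 higher, where 7.38% and 3.43% of all genes were. Without spaceflight replicates 1 and 3, 5 were lower and 4 higher, where 3.97% and 3.49% of all genes were. The median over the 111 was -0.13, or -0.03 without those arrays. Of the 111, 71 were brighter than the median gene, where brightness groups had medians of -0.14 to -0.07 with all arrays. Groups without overlap numbered 6 of 111 lower and 0 higher, where 4.28% and 1.73% of all genes were so.

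**Figure D4:**
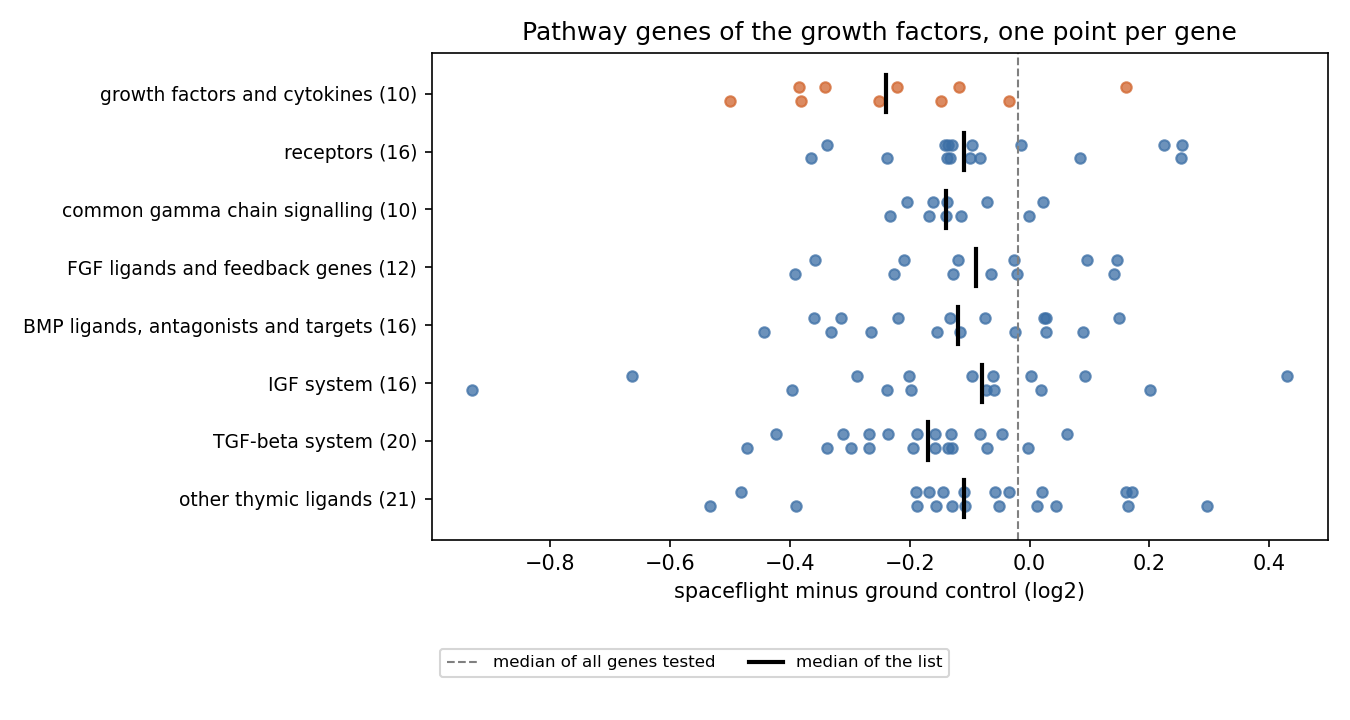
Difference between groups in log2 units (horizontal axis), 1 point per gene, for the 10 growth factors and cytokines (orange) and 7 lists of their pathway genes (blue), with the number measured in brackets, black bars for list medians and a dashed line for the median of all genes (-0.02). List medians lie between -0.24 and -0.08, and the outermost points are Ghr (-0.93) and Igfbp1 (0.43).

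The genes whose profile over the 8 arrays was most like that of Kitl, Il15 and Igf1, the 3 of the 10 with the largest SD, were found by the root mean square difference of values centred on each gene's mean. For Kitl, whose values spanned 1.26, they were Ank, a pyrophosphate transporter gene (0.072), Synpo2, an actin-binding protein gene (0.085), and Akap1, a mitochondrial anchor of protein kinase A (0.086), where the median over all genes was 0.370. For Igf1 they were Gnpnat1, an enzyme gene of hexosamine synthesis (0.065), 4833439L19Rik (0.067) and Tax1bp3 (0.070). For Il15 they were Igsf6 (0.116), the adaptor gene Nck1 (0.119) and Rcl1 (0.128). These likenesses rest on 8 arrays among which spaceflight replicate 1 was the lowest for all 3 genes, and they were picked from all genes measured.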

How the data were processed

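Thymus RNA of 4 spaceflight and 4 ground-control mice was measured on 1 array each. Per the labels' protocols, 6 µg of Trizol-extracted total RNA was made into biotin-labelled cRNA. The authors deposited log2 values made with RMA, per the submitters' processing notes, which also name limma. For neither tool is a version, nor for the array a genome build, given in the sources used here. Precision is limited by the number of arrays.

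Of 35557 probe sets, the lowest unbroken run of identifiers (6614, none with a gene) was left out as probable controls. Of 28943 others, 21789 had 1 gene, 1621 several and 5533 none in the platform annotation. Symbols were updated by Entrez identifier (21698 matched) to RefSeq GRCm38.p6, and the brightest probe set represented a gene (19938 genes). The groups were compared by limma 3.58.1 in R 4.3.3 (lmFit and eBayes on all 8 arrays, two-sided, without a replicate block). P-values were adjusted over these genes by Benjamini-Hochberg, with a threshold of 0.05. The procedure was tested on simulated data.

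Members, gene lists and motifs were chosen with earlier results of these data known. Named pathway genes are the 4 of smallest p in each list, and profiles were matched for the 3 members of largest SD. Each array is a separate mouse. The p-values rest on the spread between these mice, which eBayes moderates toward a value shared over all genes. Alternatives covered centring, normalization, probe set choice, a brightness filter, adjustment over all probe sets, the variance model, array weights, the replicate block and left-out arrays.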

Additional observations from a re-analysis of the deposited data

Results flagged for a closer look

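In each group of 4 mice, an array was singled out when its gap to the nearest other was too large a share of the group's range by Dixon's 95% critical value. Of 76 group values (38 genes in 2 groups), 9 were singled out, where chance gives about 1 in 20, or 3.8. Of the 10 growth factors and cytokines 1 appeared, Kitl, with spaceflight replicate 1 at 5.64 and the next at 6.16. Spaceflight replicate 1 was also the low array for Ghr (6.83, next 8.04) and Vegfa (6.54, next 7.08), and the high array for Il1b (5.13, next 4.86). Ground-control replicate 3 was the high array for Klb (6.80, next 6.26), Tgfbr3 (8.10, next 7.73), Bmpr1a (8.22, next 7.85) and Fgf1 (7.57, next 6.95), and the low array for Tnf (6.32, next 6.44). All 9 came from these 2 arrays.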

How the results depend on the processing

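None of the 10 genes and none of the 111 pathway genes passed under any of the 18 alternatives, and the lowest adjusted p of the 10 was 0.182 (Il7 without spaceflight replicate 2). The count over all genes, 16 (3 higher), was 25 (3 higher) with genes above the median level only, 10 (2 higher) with adjustment over all probe sets, 20 with the replicate block, and 16 (8 higher) without spaceflight replicates 1 and 3. Without ground-control replicates 1, 2, 3 and 4 in turn it was 9, 8, 6 and 7, and without spaceflight replicates 1, 2, 3 and 4 in turn 9, 15, 10 and 11. Lower means numbered 3 of the 3 genes that passed the brightness filter, and 8 or 9 of 10 otherwise. Genes lower at an unadjusted p under 0.05 (4 of 10) were 5 with repeated quantile normalization and 1 with 75th-percentile centring. With the brightness filter they were 2 of the 3 genes that passed it. They numbered 2 with array weights, 2 without spaceflight replicates 1 and 3, and 2 to 4 without single arrays. Leaving out either of those replicates alone gave 2 such genes. Kitl was among them under each alternative, with differences from -0.58 to -0.36. Directions turned for Il15 (0.10 without spaceflight replicates 1 and 3, 0.023 without replicate 1, and from -0.29 over single left-out arrays), Bmp4 (0.045 with 75th-percentile centring, 0.013 with array weights, 0.074 without ground-control replicate 3, and from -0.093 over single left-out arrays) and Bmpr1a (0.003 without spaceflight replicates 1 and 3). The cause of these changes was not tested. Deviations of same-numbered mice from their group means correlated at -0.30 to 0.24. With so few mice and with spaceflight replicates 1 and 3 standing apart, this cannot settle whether the numbers pair mice. With the replicate block the adjusted p was 0.265 for Kitl and 0.407 for Il7, and no call on the 10 changed. Of the 10 genes, 7 were dimmer than the median gene, as were Bmp7 and Il1b among the pathway genes. How far signal over background limits them was not tested.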
